A study of Mus musculus with 15 samples.

Results

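C1qa, C1qb, C1qc, C3, C4b, Cfb, Cfp and Vsig4 encode proteins of the complement system that macrophages are known to make. These 8 genes were picked by symbol from the 37711 gene symbols listed in either of 2 deposited count tables, and both tables list all 8. The rule matches symbols and uses no level, although earlier results of these data were known when the genes were chosen. The cells were grown from the bone marrow of male C57BL/6 mice aged 8 to 10 weeks, in alpha+ MEM with CSF1, the growth factor that carries marrow cells into the macrophage lineage, and fetal calf serum (FCS). Their RNA was sequenced on the Ion Torrent platform.

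There were 5 groups of 3 libraries, numbered mouse 1 to 3 in each group. All cells shared a first day at 0.6 ng/ml CSF1 and 15% FCS, from which the cells that had not attached were carried on. Precursors were kept at 0.6 ng/ml and 15% FCS for 1 more day. Immature macrophages had the same second day followed by 4 days at 12 ng/ml in 10% FCS. Mature macrophages had 2 days at 12 ng/ml followed by 7 days at 120 ng/ml, both in 10% FCS. These 9 differentiation libraries form the first table. The second table holds mature macrophages after 48 h more at 120 ng/ml CSF1, either with 20 ng/ml IL4, a cytokine of type 2 immunity, or unstimulated. The labels give no sorting step for any group.

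Complement is a cascade of plasma proteins that marks microbes and dying cells for uptake. C1q, built of A, B and C chains, recognises surfaces and starts the classical pathway, which proceeds through C4 to C3. Factor B (Cfb) and properdin (Cfp) amplify C3 deposition in the alternative pathway, and VSIG4, also called CRIg, is a macrophage receptor for C3 fragments. Most complement proteins come from the liver, whereas C1q and properdin come mainly from myeloid cells.

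RefSeq promoters on GRCm38.p6 were on hand for 5 of the 8 genes. The windows of C1qb, C3 and Vsig4 are shown because these genes followed 3 different courses in the data, and each covers the 250 bases before the RefSeq start, on the minus strand, written 5′ to 3′ (C1qb at chr4:136886201-136886450, C3 at chr17:57228137-57228386, Vsig4 at chrX:96293439-96293688). Capitals mark TGCTGA, a short motif bound by MAF factors, on either strand (in C3 it reads TCAGCA, its complement), and GAGGAA, the core that ETS factors such as PU.1 bind.
C1qb: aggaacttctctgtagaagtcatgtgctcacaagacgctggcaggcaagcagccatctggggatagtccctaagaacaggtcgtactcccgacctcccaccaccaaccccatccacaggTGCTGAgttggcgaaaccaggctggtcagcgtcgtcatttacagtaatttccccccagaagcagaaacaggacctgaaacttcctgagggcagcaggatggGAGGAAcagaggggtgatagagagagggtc
C3: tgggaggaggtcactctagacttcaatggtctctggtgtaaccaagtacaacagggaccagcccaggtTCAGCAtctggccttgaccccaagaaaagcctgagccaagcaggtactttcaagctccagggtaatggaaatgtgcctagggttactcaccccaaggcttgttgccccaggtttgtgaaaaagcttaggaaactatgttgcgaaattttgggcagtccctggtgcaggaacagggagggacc
Vsig4: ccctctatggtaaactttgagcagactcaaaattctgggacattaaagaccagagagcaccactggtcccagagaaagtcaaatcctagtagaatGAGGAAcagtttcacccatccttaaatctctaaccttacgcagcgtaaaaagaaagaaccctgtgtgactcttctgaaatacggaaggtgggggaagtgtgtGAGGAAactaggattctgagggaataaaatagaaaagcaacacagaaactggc

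C1qb held 1 GAGGAA, 30 to 25 bases before the start, and 1 TGCTGA. Vsig4 held 2 GAGGAA, and C3 held 1 TGCTGA. Of 32536 RefSeq promoter windows of this length, 23.4% held GAGGAA and 16.1% held TGCTGA, so both are common. The interferon response element core (in 2.98% of windows), TGACTCA (AP-1, 4.45%) and TTCNNNGAA (STAT, 7.04%), searched on both strands, were in none of the 5 windows. The Cfp window held no match to any of the 5 motifs. None of the marked matches overlaps another.

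Between 7897769 and 22167294 reads were counted per differentiation library, and between 2408531 and 4214266 per library with or without IL4. Levels are CPM, counts scaled to a common library total with TMM factors, within a table, and the tables were not joined in any test. They differ widely for some genes: of 1901 genes at 100 CPM or more in mature macrophages, 212 (11.2%) were over 64-fold lower in the unstimulated cells of the second table, C1qa among them, and the cause was not tested. Summed over 5 macrophage markers, Adgre1, Csf1r and Cd68 among them, levels ran over the libraries from 1082 to 1509 CPM in precursors, 3675 to 7360 CPM in immature and 4996 to 5827 CPM in mature macrophages. Summed neutrophil markers (8 genes) ran from 12760 to 19185 CPM in precursors, 140.2 to 204 CPM in immature and 0.486 to 1.17 CPM in mature macrophages, where 5 of the 8 had no read. The 8 fibroblast and stromal markers, whose cells also make C3 and C4 in tissues, reached at most 4.15 CPM in sum in any precursor library and 0.946 CPM in any immature one, and all 8 had no read in mature macrophages.

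**Figure D1:**
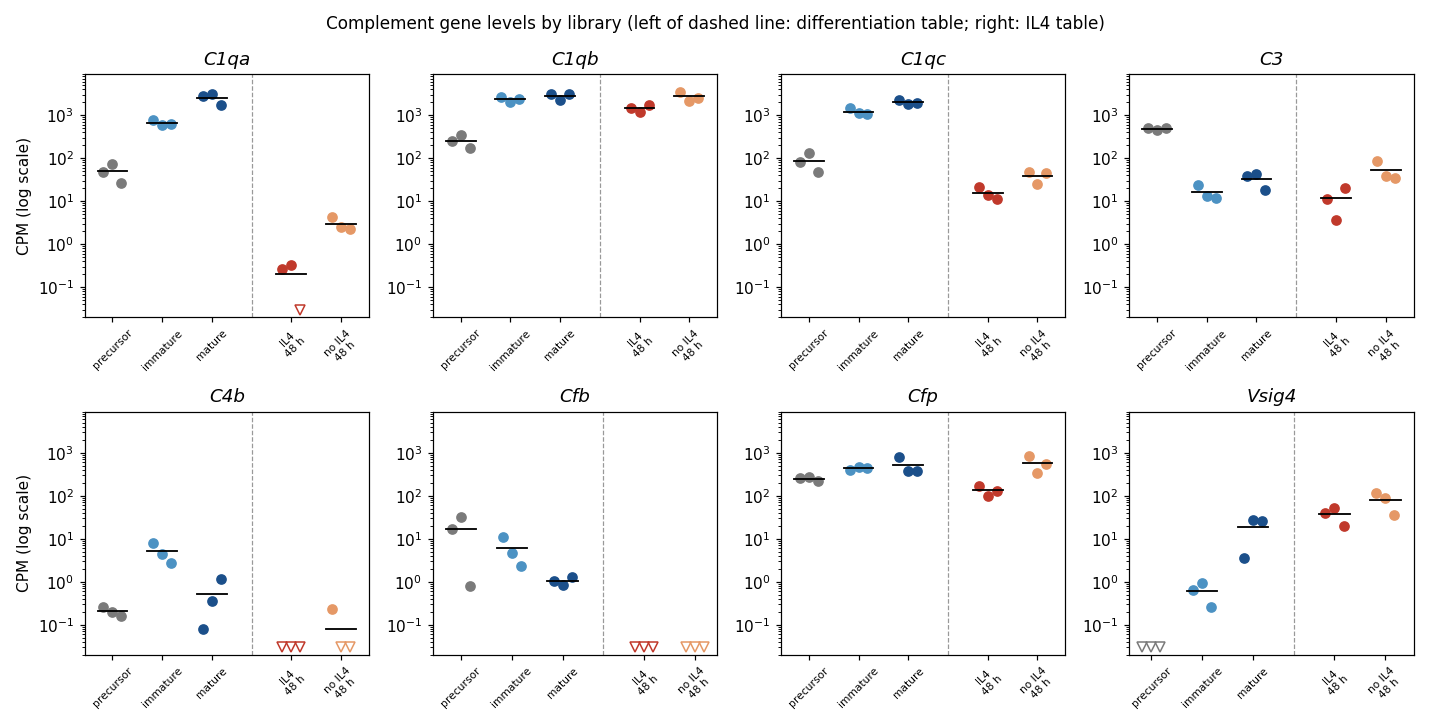
Level of each complement gene in each library, in CPM on a log axis, with the 3 differentiation stages left of the dashed line and the second table, with and without IL4, right of it. Points are libraries, bars are group means and open triangles are libraries with no read. The 3 C1q genes stand lowest in precursors among the 3 stages, C3 stands highest there, and Vsig4 has no read there.

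The first question, which the study's design poses, is how the RNA of CSF1-grown marrow cells changes as they become macrophages. In immature macrophages 6 of the 8 genes rose against precursors, C3 fell and Cfb did not pass the test (edgeR, adjusted p under 0.05). All 8 passed the filter on low counts, which was run over all 9 differentiation libraries. Vsig4 passed it only through the mature libraries and C4b only through the immature ones, the groups where each was highest. Of the 13359 genes tested 49.2% were called, 22.5% higher and 26.6% lower, so a call by itself is common in this comparison. The median log2 fold change of the 8 was 3.45, or 3.20 with Vsig4 at its lower bound, against -0.07 for all genes tested.

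The C1q genes lie side by side on chromosome 4, all on the minus strand, at 136880129-136886187 (C1qb), 136889804-136893065 (C1qc) and 136895917-136898803 (C1qa) on GRCm38, in the order of the deposited positions. C1qb, the B chain, stood at 2626, 2012 and 2327 CPM in the 3 immature libraries, against 247, 348 and 173 CPM in the precursor libraries. C1qc, the C chain, stood at 1462, 1123 and 1056 CPM in immature macrophages, against 80.3, 131 and 48.6 CPM in precursors. C1qa, the A chain, stood at 776, 577 and 614 CPM in immature macrophages, against 48.2, 73.6 and 27.0 CPM in precursors. Every immature library was above every precursor library for all 3 chains, and precursor library 2 was the highest of its group for each. How many of all genes separate in this way was not counted, and 49.2% of them were called in this comparison.

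Immature macrophages over precursors gave a log2 fold change of 3.72 ± 0.39 for C1qa (SE, n = 3 each), a 13.2-fold rise (edgeR adjusted p 3.52e-05). For C1qb it was 3.18 ± 0.30, or 9.07-fold (edgeR adjusted p 1.96e-05), and for C1qc 3.80 ± 0.35, or 14.0-fold (edgeR adjusted p 1.67e-05). In bulk samples such as these, fewer cells of a type and less RNA per cell cannot be told apart, and the macrophage marker sum given above was also higher in immature macrophages.

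C3, the protein on which all complement pathways converge, lies on chromosome 17 at 57203970-57228136 and went the other way. It stood at 23.7, 13.1 and 12.1 CPM in immature macrophages, against 498, 442 and 498 CPM in precursors, so the groups were far apart. This was a log2 fold change of -4.87 ± 0.38, 29.2-fold lower in immature macrophages (edgeR adjusted p 6.36e-06). Markers of several other marrow cells were lower in the same immature libraries, beside the neutrophil sums given above. Monocyte markers summed to 125 to 190.4 CPM in immature macrophages, against 1229 to 1667 CPM in precursors, and B cell markers to 1.97 to 2.81 CPM, against 206 to 306 CPM in precursors. Dendritic cell markers summed to 2.60 to 3.32 CPM in immature macrophages, against 182 to 209 CPM in precursors, and eosinophil markers to 0.205 to 1.10 CPM, against 87.4 to 122 CPM in precursors. Their part in the C3 result was not tested.

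C4b, the mouse gene for complement C4, lies on chromosome 17 at 34728380-34743882 and had few reads. The immature libraries held 103, 42 and 21 reads, against 4, 5 and 2 in the precursor libraries. All immature libraries were above all precursor libraries, and the log2 fold change was 4.54 ± 0.76 (edgeR adjusted p 0.000717). C4b passed the low-count filter only through these immature libraries. Of the 31-base words in C4b exons, 48.3% also occur in its near copy C4a, so the reads of the pair cannot be fully separated. C4a held 30 reads over the 3 immature libraries and 28 over the 3 precursor libraries.

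Cfb, the protease of the alternative pathway, lies on chromosome 17 at 34856374-34862518. It had 11.1, 4.71 and 2.30 CPM in immature macrophages, against 16.8, 31.7 and 0.803 CPM in precursors. Precursor library 3 was below every immature library, while the other precursor libraries were above all of them. The log2 fold change was -1.43 ± 0.88 (edgeR adjusted p 0.198), with a 95% interval from -3.36 to 0.51. Without precursor library 3 it was -1.98 (edgeR adjusted p 0.0157), without precursor library 2 it was -0.53 (adjusted p 0.673) and without immature library 1 it was -2.22 (adjusted p 0.0944). With limma on the deposited log2 values it was 0.0053, and over all alternatives the adjusted p ran from 0.0157 to 0.998.

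Most of the Cfb sequence, 75.5% of its 31-base words, also lies in Gm20547, an annotated read-through gene on the same strand. Gm20547 was counted at nearly the same number of reads, 201 over the immature libraries where Cfb had 205 and 991 over the precursor libraries where Cfb had 1050, so how the authors' counting shared these reads cannot be told apart from the level of either gene. C2, the next gene, held 11 reads in immature macrophages and 4 in precursors.

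Cfp encodes properdin, the stabiliser of the alternative pathway convertase, and lies on chromosome X at 20925454-20931555. It stood at 393, 465 and 442 CPM in immature macrophages, against 254, 270.3 and 214 CPM in precursors. The groups did not overlap, and the log2 fold change was 0.82 ± 0.28, or 1.76-fold (edgeR adjusted p 0.0316). The call was lost without precursor library 1, 2 or 3 (adjusted p 0.0750, 0.0575 and 0.10), without immature library 2 or 3 (adjusted p 0.0873 and 0.0521), and with limma on the deposited log2 values, and over all alternatives the adjusted p ran from 0.00269 to 0.10.

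Vsig4, on chromosome X at 96247203-96293438, had 8, 9 and 2 reads in the immature libraries, against 0 in each precursor library. It was at least 9.37-fold higher in immature macrophages, with the precursor group set at 3 reads in all (edgeR adjusted p 0.0242). The call was lost without precursor library 2 (adjusted p 0.0592) and without immature library 2 (adjusted p 0.0604), and over all alternatives the adjusted p ran from 0.000142 to 0.0604. The bound with any 1 library left out was at least 4.93-fold. With only the immature and precursor libraries in the fit, Vsig4 had too few reads to be tested.

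**Figure D2:**
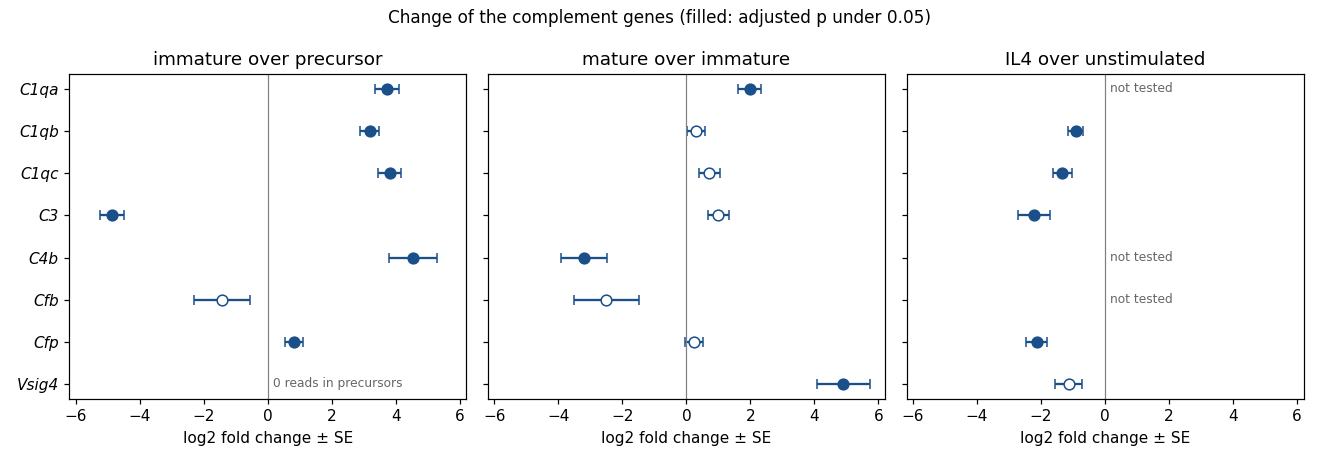
Log2 fold change of the complement genes with its standard error as whiskers, for immature over precursor, mature over immature and IL4 over unstimulated cells (filled circles passed an adjusted p of 0.05). No value is drawn for Vsig4 in the first panel, where precursors have no read. None is drawn for C1qa, C4b and Cfb in the third panel, where they were not tested. C3 is the only gene of the 8 called lower in the first panel, and every tested gene of the third panel is below 0.

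Over the step to mature macrophages, C1qa and Vsig4 rose, C4b fell, and the other 5 genes did not pass the test. Mature and immature cultures differed in CSF1 dose, in its schedule and in days of culture, which cannot be told apart. Of all genes tested 14.9% were called here, 7.52% higher and 7.38% lower, and the median log2 fold change of the 8 was 0.51, against 0 for all genes. The comparison shares its immature libraries with the one before.

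C1qa stood at 2858, 3139 and 1719 CPM in mature macrophages, above each of the immature libraries given before. Its log2 fold change was 1.97 ± 0.36, or 3.92-fold (edgeR adjusted p 0.00500). C1qb stood at 3173, 2201 and 3168 CPM, and its second mature library lay within the range of the immature ones. Its log2 fold change was 0.29 ± 0.28 (edgeR adjusted p 0.521, 95% interval -0.32 to 0.91). C1qc stood at 2247, 1866 and 1874 CPM, all above the immature libraries, with a log2 fold change of 0.72 ± 0.32 that did not pass (edgeR adjusted p 0.155, 95% interval 0.02 to 1.42).

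The chains also took different shares of the C1q reads in mature and immature macrophages, as the plot of chain shares shows. C1qa held 34.5%, 43.6% and 25.4% of the C1q reads in the mature libraries, a mean of 34.5% ± 9.07 (SD, n = 3), against 15.6% ± 0.305 in immature macrophages. The share of C1qb was 38.6% ± 8.16 in mature and 55.5% ± 2.38 in immature macrophages, and that of C1qc was 26.9% ± 0.928 and 28.9% ± 2.16. For C1qa and C1qb the mature and immature libraries did not overlap, and the exact two-sided permutation p was 0.10, the smallest that 3 against 3 can give, or 0.15 adjusted over the 9 shares tested. For C1qc they overlapped (exact permutation p 0.30). Counting error was small beside these gaps: the exact 95% binomial interval of the lowest mature C1qa share was 25.1% to 25.7%, an interval that covers counting error only.

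The same shares also differed at the first step, where C1qb held 55.5% in immature macrophages and 66.1% ± 3.31 in precursors, without overlap (exact permutation p 0.10, adjusted 0.15). All C1q reads together made up 0.641% to 0.734% of the reads of a mature library, 0.362% to 0.450% of an immature one and 0.0278% to 0.0617% of a precursor one. Per kilobase of exon, the mean levels in mature macrophages were 2617 ± 515 CPM per kb for C1qb, 2473 ± 723 for C1qa, 1033 ± 113 for C1qc and 294 ± 134 for Cfp (SD, n = 3). On this per-length scale C1qa and C1qb did not differ beyond their spread.

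**Figure D3:**
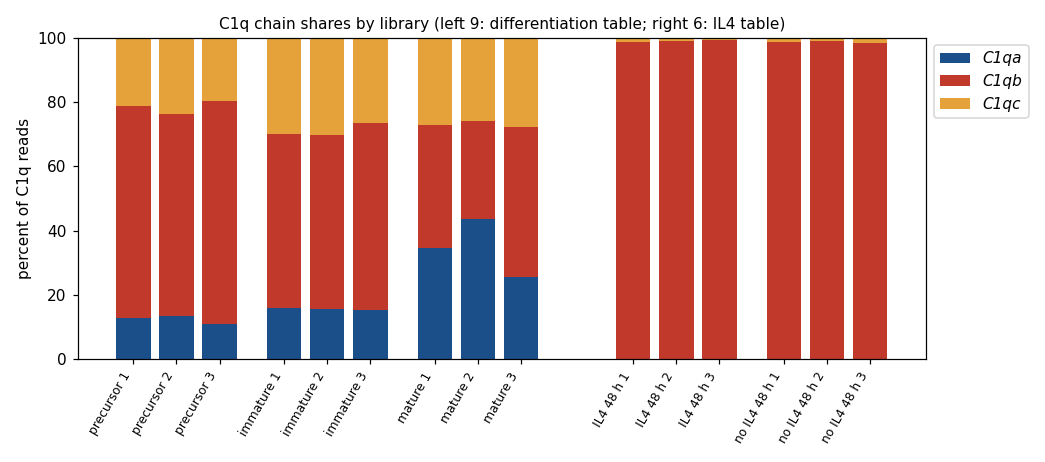
Share of C1qa, C1qb and C1qc in the C1q reads of each library, in percent, as stacked bars, with the 9 differentiation libraries left and the 6 libraries of the second table right. The C1qa share is 25.4% to 43.6% in mature macrophages, and C1qb takes over 98% of the C1q reads in every library of the second table.

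Vsig4 stood at 3.48, 26.6 and 26.2 CPM in mature macrophages, against 0.630, 0.921 and 0.256 CPM in immature ones. Library 1 of the mature group was far below the others, yet above each immature library. This gave a log2 fold change of 4.90 ± 0.83, or 29.8-fold (edgeR adjusted p 0.00574).

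C4b had 1, 3 and 15 reads in the mature libraries, against the 103, 42 and 21 in the immature ones. The log2 fold change was -3.20 ± 0.71 (edgeR adjusted p 0.0127). It lost the call without immature library 1 (-2.67, adjusted p 0.0573) and was -4.62 without mature library 3, which held 15 of the 19 mature reads, and over all alternatives the adjusted p ran from 0.000228 to 0.0573.

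C3 stood at 38.9, 41.8 and 17.8 CPM in mature macrophages, the last within the range of the immature libraries. The log2 fold change was 1.00 ± 0.33 and did not pass (edgeR adjusted p 0.0698). It passed without immature library 1 (1.37, adjusted p 0.0268) and without mature library 3 (1.30, adjusted p 0.0115), and over all alternatives the adjusted p ran from 0.0115 to 0.226.

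Cfb was at 1.05, 0.819 and 1.30 CPM in mature macrophages, below all immature libraries, with a log2 fold change of -2.51 ± 1.02 (edgeR adjusted p 0.124). With only the 6 libraries compared it was -2.53 and passed (adjusted p 0.0355), and over all alternatives the adjusted p ran from 0.0355 to 0.418. Without immature library 1 the log2 fold change was -1.71. Cfp stood at 779, 370.1 and 383 CPM in mature macrophages, with 1 library high and the others below every immature library. Its log2 fold change was 0.24 ± 0.28 (edgeR adjusted p 0.612, 95% interval -0.37 to 0.85), and -0.20 without mature library 1.

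Set directly against precursors, mature macrophages were higher in 5 of the 8 genes and lower in C3 and Cfb. In this comparison 54.3% of all genes were called, 25.8% higher and 28.5% lower, and it shares its libraries with both steps above. The log2 fold changes of mature macrophages over precursors were 5.69 ± 0.43 for C1qa, 4.52 ± 0.37 for C1qc, 3.48 ± 0.31 for C1qb and 1.05 ± 0.28 for Cfp. C3 was 14.6-fold lower in mature macrophages, at -3.87 ± 0.36 (edgeR adjusted p 1.15e-05). Vsig4 was at least 260-fold higher in mature macrophages, and at least 137-fold with any 1 library left out.

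Cfb was at -3.94 ± 1.03 over the same span (edgeR adjusted p 0.00790), although the precursor libraries, from 0.803 to 31.7 CPM, enclosed the mature ones. Without precursor library 2 it was -3.03 (adjusted p 0.0318). With limma on the deposited log2 values it was -1.98 and did not pass (adjusted p 0.275), the highest adjusted p of all alternatives, whose lowest was 0.000354. With only the mature and precursor libraries in the fit, C4b had too few reads to be tested. In the fit of all stages C4b was at 1.33 ± 0.84 and did not pass (edgeR adjusted p 0.200, 95% interval -0.53 to 3.19). It was -0.078 without mature library 3, and 2.38 with limma on the deposited log2 values, where it passed (adjusted p 0.0110), and over all alternatives the adjusted p ran from 0.0110 to 0.947.

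Beside the spread of Cfb between libraries stand the values of 10 interferon response genes, Ifit1, Isg15, Irf7 and Rsad2 among them, whose summed levels were 896, 1082 and 244 CPM in precursor libraries 1, 2 and 3. They were 1241, 930.5 and 708 CPM in the immature libraries and 333, 360.4 and 446 CPM in the mature libraries. The order of the libraries was that of Cfb in precursors and in immature macrophages, and not in mature macrophages. This match was not particular to interferon response genes, since the macrophage marker sum had the same order in those groups. It was 1360, 1509 and 1082 CPM in precursor libraries 1, 2 and 3, and 7360, 4930 and 3675 CPM in the immature libraries. The part of an interferon response in the Cfb values was not tested.

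**Figure D4:**
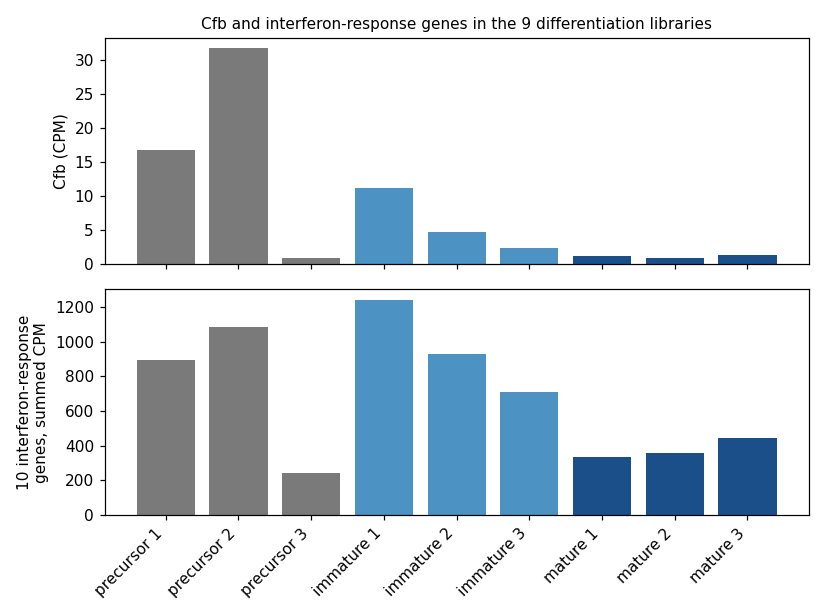
Cfb in CPM (top) and the summed CPM of 10 interferon response genes (bottom) in the 9 differentiation libraries, as bars by library. Precursor library 3 is the lowest of its group in both panels, at 0.803 CPM and 244 CPM.

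The second question is what IL4 does to mature macrophages over 48 h. With IL4, Cfp, C3, C1qc and C1qb fell against unstimulated cells, and Vsig4 did not pass the test. Of the 8 genes 5 passed the filter on low counts, and 20.8% of the 8936 genes tested were called, 10.5% higher and 10.3% lower. The median log2 fold change of the 5 was -1.34, against 0.01 for all genes. Known IL4 response genes (5 listed in this table) summed to 6260.5 to 21195 CPM with IL4 and 1320.3 to 2234 CPM in unstimulated cells. They did not move together: of the 4 tested, 3 were higher with IL4 and 1, Mrc1, was lower. Mrc1 was at 982 ± 226 CPM with IL4 and 1781 ± 457 CPM in unstimulated cells (SD, n = 3). Retnla was at 8840 ± 8546 CPM with IL4 and had no read in unstimulated cells, and Arg1 was at 1804 ± 137 CPM and 5.11 ± 6.06 CPM. The macrophage marker sum (4 of the 5 markers listed) was 3130.2 to 4009 CPM with IL4 and 3031 to 4517 CPM in unstimulated cells.

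Cfp stood at 168, 97.3 and 132 CPM with IL4, against 857, 342 and 549 CPM in unstimulated cells. The groups did not overlap, and the log2 fold change was -2.14 ± 0.32, 4.40-fold lower with IL4 (edgeR adjusted p 0.000743). C3 stood at 10.98, 3.64 and 20.1 CPM with IL4, against 88.0, 37.5 and 35.5 CPM in unstimulated cells, again without overlap. Its log2 fold change was -2.22 ± 0.50, 4.67-fold lower (edgeR adjusted p 0.00851), and -2.84 without IL4 library 3 (adjusted p 0.00463, in a range over all alternatives from 7.01e-05 to 0.0233).

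C1qb stood at 1443, 1171 and 1709 CPM with IL4, against 3524, 2159 and 2505 CPM in unstimulated cells. Its log2 fold change was -0.92 ± 0.23, 1.89-fold lower (edgeR adjusted p 0.0138). The call was lost without IL4 library 2 (adjusted p 0.0738, in a range over all alternatives from 0.000412 to 0.0738). C1qc stood at 21.4, 13.9 and 11.5 CPM with IL4, against 48.8, 25.5 and 44.1 CPM in unstimulated cells, a log2 fold change of -1.34 ± 0.30 (edgeR adjusted p 0.00784). For both chains every IL4 library was below every unstimulated library, a separation that was not counted over all genes.

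C1qa had 1, 1 and 0 reads with IL4, against 18, 6 and 9 in unstimulated cells, too few for the filter. The pooled ratio was 15.8-fold lower with IL4, with an exact 95% counting interval from 4.04-fold to 136-fold. Without a filter the log2 fold change was -3.68 (edgeR adjusted p 0.00188), and it was also -3.68 with a filter at 1 CPM in 3 libraries (adjusted p 0.00234). The second table thus gives a C1q makeup unlike the first, with C1qb at 98.9% ± 0.412 of the C1q reads with IL4 and 98.5% ± 0.271 in unstimulated cells (SD, n = 3). C1qc held 1.10% ± 0.401 with IL4 and 1.42% ± 0.285 in unstimulated cells, overlapping between the groups (exact permutation p 0.50). The levels of C1qa and C1qc in this table are therefore given only within it.

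Vsig4 stood at 38.6, 52.3 and 19.4 CPM with IL4, against 118, 88.6 and 36.0 CPM in unstimulated cells, and unstimulated library 3 lay within the IL4 range. The log2 fold change was -1.13 ± 0.42 (edgeR adjusted p 0.0846, 95% interval -2.06 to -0.21). With the mouse number as a replicate block it was -1.11 and passed (edgeR adjusted p 0.000202). That pairing rests on the titles, since the deposited column names give the same libraries other numbers, whose meaning is not given. Deviations of IL4 library 2 from its group mean correlated by 0.247 with those of unstimulated library 3, and by 0.175 with those of unstimulated library 2. For libraries 1 and 3 the correlation with the unstimulated library of the same number was 0.591 and 0.413, the highest for each. The Vsig4 change also passed without unstimulated library 3 (-1.49, adjusted p 0.0125), and over all alternatives the adjusted p ran from 0.000202 to 0.262. C4b had 0 reads with IL4 and 1 read in unstimulated cells. Cfb had no read in any of the 6 libraries, where a count of 0 allows up to 0.299 CPM with IL4 and 0.286 CPM in unstimulated cells (3 reads over the group, counting error only).

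The authors' deposited lists at an adjusted p of 0.05 hold 7, 4 and 7 of the 8 genes for immature against precursor, mature against immature and mature against precursor, and 5 for IL4. These lists hold 21.8%, 4.36%, 21.3% and 7.18% of the genes of their table. The authors' deposited table differs from the edgeR calls above in 2 cases. It lists Cfb for mature against immature macrophages, with an adjusted p of 0.00189, and it lists C1qa for IL4, with an adjusted p of 4.68e-05.

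Among 48 other complement genes, 23 were tested in the differentiation table. Immature macrophages had 6 of them higher than precursors, 10 lower and 7 that missed the threshold. Of all genes tested, 22.5% were higher and 26.6% lower in this comparison. The median log2 fold change of the 23 was -0.54. Recognition molecules of the lectin type were split. Fcna, the mouse ficolin A, was at 37.3 ± 3.48 CPM in immature macrophages and 0.235 ± 0.103 CPM in precursors (7.38 ± 0.29 on the log2 scale, edgeR adjusted p 8.00e-07). Colec12, a membrane collectin, was at 49.1 ± 4.23 CPM in immature macrophages and 4.80 ± 1.18 CPM in precursors. Fcnb, ficolin B, was at 1.76 ± 0.142 CPM in immature macrophages and 22.6 ± 2.69 CPM in precursors.

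Among the regulators, Cd55, a membrane protein, had 0 reads in immature macrophages and 954 over the precursor libraries, at least 215-fold lower. Among the receptors, Cd93 was at 1233 ± 84.5 CPM in immature macrophages and 410.2 ± 26.6 CPM in precursors.

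Over the step to mature macrophages 5 of the 23 were higher, 2 were lower and 16 missed the threshold. Of all genes tested, 7.52% were higher and 7.38% lower. The median of the 23 was 0.24 on the log2 scale. Fcna was at 114 ± 8.76 CPM in mature macrophages and Colec12 at 92.7 ± 14.3 CPM, both higher than in the immature libraries (edgeR adjusted p 0.000481 and 0.0130). Cd59a, which blocks the membrane attack complex, was at 24.8 ± 2.85 CPM in mature and 6.28 ± 0.861 CPM in immature macrophages. Itgax and Itgb2 encode the chains of complement receptor CR4. Itgax was at 130.1 ± 119 CPM in mature and 7.04 ± 0.960 CPM in immature macrophages, and Itgb2 at 2222 ± 464 CPM and 819 ± 60.8 CPM. Cd93 fell to 737 ± 101 CPM in mature macrophages (edgeR adjusted p 0.0202).

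Mature macrophages set against precursors had 8 of the 23 higher, 9 lower and 6 not passing, beside 25.8% of all genes tested higher and 28.5% lower. Clu, clusterin, had 3 reads in mature macrophages and 1150 in precursors, a pooled ratio of 302-fold lower with an exact 95% counting interval from 103 to 1464. Fcnb had no read in mature macrophages and was at least 302-fold lower.

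With IL4, 13 of the 43 other complement genes listed in the second table were tested, of which 3 were higher, 4 lower and 6 missed the threshold. Of all genes tested with IL4, 10.5% were higher and 10.3% lower. The median of the 13 was 0.04 on the log2 scale. The 3 that rose were Itgax, Itgb2 and Calr. Itgax was at 3107 ± 1000 CPM with IL4 and 34.2 ± 28.7 CPM in unstimulated cells (6.56 ± 0.57 on the log2 scale, edgeR adjusted p 2.26e-05). Itgb2 was at 3559 ± 342 CPM with IL4 and 1263 ± 178 CPM in unstimulated cells, and Calr, calreticulin, at 2755 ± 375 CPM and 1313 ± 141 CPM. Cd93 was at 103 ± 20.6 CPM with IL4 and 364 ± 70.8 CPM in unstimulated cells, and Fcna at 61.1 ± 13.3 CPM and 134 ± 37.2 CPM, both lower with IL4.

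Likeness of pattern was measured as the root mean square difference of log2 CPM, centred on each gene, over the 9 differentiation libraries, and is a description with no test. Among the 8, C1qb and C1qc were closest at 0.49, C1qa and C1qc were at 0.59, and C1qa and C1qb at 1.01. Among the other genes above 10 CPM in some stage, C1qb was closest to Scamp5 (0.19), Tspan4 (0.20) and Maged1 (0.21). C1qc was closest to Phlda3 (0.36), Colec12 (0.37) and Syngr1 (0.37), and C1qa to Akr1b8 (0.34), Pcdhac2 (0.38) and Cd59a (0.40).

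C3 was closest to Mrvi1 (0.42), Nedd9 (0.43) and Gimap6 (0.44). Cfb was closest to Ifit3b (0.78), Zbp1 (0.85) and Irf7 (0.90), and among the closest to Cfp were Sppl2b (0.15) and Pagr1b (0.15). C4b was closest to Slco2b1 (0.54), Plxnb3 (0.67) and Sorbs3 (0.70). Vsig4 had no close neighbour on this scale, its nearest being Cdkn2b (1.07), Cpe (1.08) and Rapgef5 (1.14).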

How the data were processed

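Ion Torrent libraries were made from 1 µg of total RNA taken on columns with DNase, per the labels' protocols. HISAT2 2.0.5, edgeR (no version) and the builds GRCm38.p6 and GRCm39.p6 are named in the submitters' processing notes. Neither a counting program nor a strand setting is given in the sources used here. Per gene, the authors deposited raw read counts, a log2 table of RPM (reads scaled to a common total), and lists of genes with an adjusted p-value. Gene positions are those of the deposited tables and equal GENCODE M21 (GRCm38) for all 8 genes.

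Counts were tested in R 4.3.3 with edgeR 4.0.16 (filterByExpr by group with a minimum count of 10, TMM, glmQLFit and glmQLFTest), the 9 differentiation libraries in 1 fit and the other 6 in another, with Benjamini-Hochberg adjustment over all genes tested. CPM used TMM-scaled totals of the genes tested. A fold against a group at 0 used 3 reads over that group. The 8 genes and the gene lists were chosen with earlier results of these data known. Other complement genes are named where called, with at least 10 CPM in a group, at most 6 per comparison by lowest p, and some genes so taken are not reported here.

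Alternatives were RLE scaling, DESeq2 1.42.0, limma 3.58.1 on the deposited log2 values, no filter or 1 CPM in 3 libraries, only the libraries compared, a replicate block, each library left out, and an adjusted p of 0.001. The edgeR scripts were tested on simulated data. Each group has mice numbered 1 to 3 in the titles. In the second table deviations from the group means correlated between libraries of the same number by 0.591, 0.175 and 0.413, and in the differentiation table by -0.129 to 0.165. Between libraries of different number in the second table the correlation was -0.487 to 0.247. The labels do not say whether groups share mice, and p-values measure the spread between these samples.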

Additional observations from a re-analysis of the deposited data

How the results depend on the processing

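Over the 29 log2 fold changes tested for the 8 genes, 399 alternative values were computed. Of these 364 kept the direction and the side of the threshold, 21 lost the call, 11 gained it and 3 changed sign. The 3 were fold changes that had not been called: Cfb for immature against precursor with limma on the deposited log2 values (0.0053), Cfp for mature against immature without mature library 1 (-0.20, in a range of -0.20 to 0.42 with 1 library left out), and C4b for mature against precursor without mature library 3 (-0.078, in a range of -0.078 to 1.88), and the cause was not tested. At an adjusted p of 0.001 the genes called were 2185 for immature against precursor, 210 for mature against immature, 2966 for mature against precursor and 520 for IL4, and of the 8 genes 0 were called for mature against immature and 1 for IL4. For mature against immature, 1245 genes were called with only the 6 libraries compared, and 1007 to 2702 with 1 library left out, the lowest without immature library 2 and 1262 without immature library 1. With the mouse number as a replicate block, 2883 genes were called for IL4. The block changed no call of the 8 genes other than Vsig4 with IL4. In fits that left out a library the low-count filter was applied again. With only the 6 libraries compared, Vsig4 (immature against precursor) and C4b (mature against precursor) had too few reads to be tested. Few reads limit the precision for C4b and Vsig4 in the differentiation table. C1qa, C4b and Cfb had too few reads for a test in the other table, where C1qb held 14117 reads with IL4 and 30417 in unstimulated cells.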
